A study of Mus musculus with 16 samples.

Results

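The 10 genes that carry ethanol to acetate and acetate to acetyl-CoA were followed across the brains of adolescent mice that drank water, nicotine, ethanol or both. The 10 members were chosen by symbol, as the rows of the deposited tables named Adh1, Adh5, Cat and Cyp2e1 (ethanol to acetaldehyde), Aldh2, Aldh1a1, Aldh1b1 and Aldh3a2 (aldehyde oxidation), and Acss1 and Acss2 (acetate to acetyl-CoA), and all 10 were found among the 24062 genes of the count table and the 23991 genes of the FPKM table. FPKM divides a gene's fragments by transcript length in kb and by the size of the library, and it is the scale used here to compare one gene with another.

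RNA-seq was performed on whole brain, cerebellum included, from 16 female C57BL/6J mice, an inbred strain, killed on postnatal day 45, with 4 mice in each of 4 groups and 1 library from each mouse. WW mice received water throughout. NW mice had bottles with 200 µg/ml nicotine for 22 h a day over 10 days and water in the remaining hours. Water-Ethanol mice had water in the bottles and 20% v/v ethanol under drinking-in-the-dark, a protocol of brief ethanol sessions during the dark hours, for 2 h a day from postnatal day 42 and for 4 h on the last of 4 days, at the end of which the brain was taken. NE mice had the nicotine bottles and the ethanol sessions. On the last day the nicotine bottles of NW and NE mice were off for the 4 h before the brain was taken. The paper names withdrawal from nicotine as a possible source of the effects in its nicotine group. Nicotine intake and withdrawal cannot be told apart here. Intake was voluntary. The paper reports higher ethanol intake and blood ethanol in NE than in Water-Ethanol mice on the last day. Nicotine and ethanol dose therefore cannot be told apart where these groups are compared. A whole brain library mixes all regions and cell types. The count table held between 27100352 and 32880979 reads for each mouse, with a median of 29448284.

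Ethanol is oxidized to acetaldehyde by cytosolic alcohol dehydrogenases, by the peroxisomal enzyme catalase in the presence of hydrogen peroxide, and by the microsomal cytochrome CYP2E1. In brain, catalase and CYP2E1 are known for most of the local oxidation, while the liver relies on the class I alcohol dehydrogenase encoded by Adh1. Aldehyde dehydrogenases then convert acetaldehyde to acetate, with the mitochondrial enzyme ALDH2 as the main one, and acetyl-CoA synthetases activate the acetate for energy metabolism or for histone acetylation.

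The level of these transcripts in brain spanned more than 2 orders of magnitude and followed one order in both scales tried. Aldh1a1, a cytosolic retinaldehyde and acetaldehyde dehydrogenase, had the highest mean at 62.5 ± 4.86 FPKM (SD, n = 16 mice). Aldh2 followed at 42.8 ± 1.82 FPKM and Adh5, the ubiquitous class III enzyme that also oxidizes the glutathione adduct of formaldehyde, at 31.5 ± 2.55 FPKM. Cat, which encodes catalase, stood at 23.6 ± 1.29 FPKM. Acss2, the cytosolic and nuclear acetyl-CoA synthetase, had 21.1 ± 1.29 FPKM and Aldh3a2, the fatty aldehyde dehydrogenase of the endoplasmic reticulum, 19.2 ± 0.701 FPKM. The mitochondrial synthetase gene Acss1 was lower, at 8.10 ± 0.745 FPKM, and Aldh1b1, a second mitochondrial aldehyde dehydrogenase, had 3.63 ± 0.419 FPKM. Adh1 and Cyp2e1 were at the bottom, with 0.373 ± 0.0950 and 0.308 ± 0.0967 FPKM.

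Most neighbours in this order were separated in every mouse. The ranges over 16 mice did not overlap between Aldh1a1 and Aldh2, Aldh2 and Adh5, Adh5 and Cat, Aldh3a2 and Acss1, Acss1 and Aldh1b1, or Aldh1b1 and Adh1. The ranges of Cat and Acss2 overlapped, although Cat was higher in 15 of 16 mice, and those of Acss2 and Aldh3a2 overlapped with Acss2 higher in 16 of 16. Adh1 exceeded Cyp2e1 in 10 of 16 mice, so these genes were not ordered beyond their spread.

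**Figure D1:**
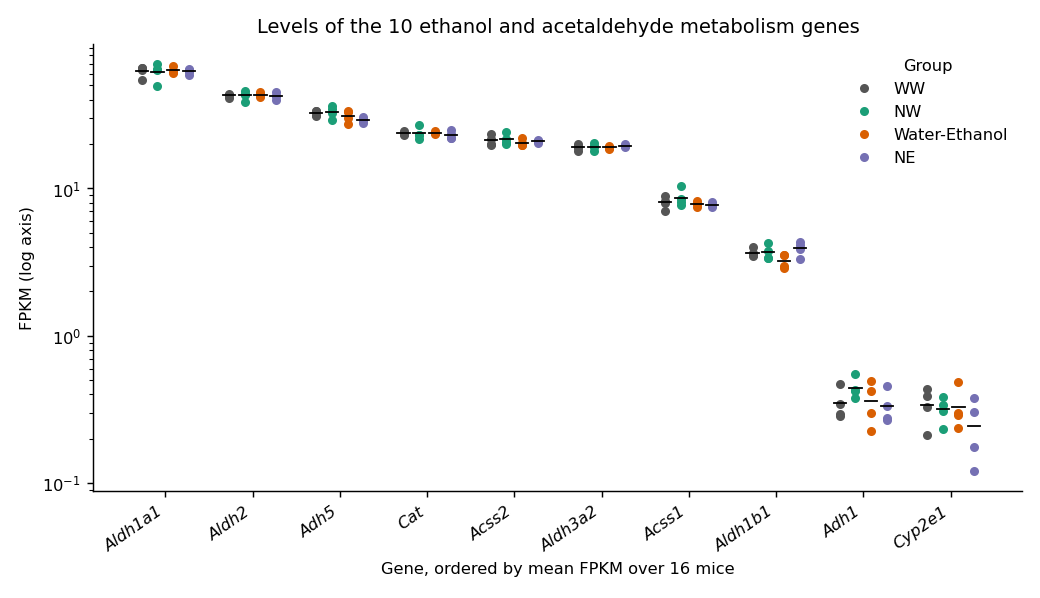
FPKM on a log axis for each of the 10 genes, with 1 point per mouse, colours for the 4 groups and a short line at each group mean. The points of the 4 groups lie together within each gene, and the genes run from a mean of 62.5 FPKM for Aldh1a1 to 0.308 FPKM for Cyp2e1.

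Beside Adh5, the liver-type gene Adh1 was nearly silent. The FPKM ratio of Adh5 to Adh1 was 89.3 ± 21.4 over 16 mice and ran from 55.1 to 134. Both genes lie on chromosome 3 of GRCm38, Adh1 (ENSMUSG00000074207) at chr3:138277645-138290691 and Adh5 (ENSMUSG00000028138) at chr3:138437200-138455499, both on the plus strand and 146.5 kb apart. The sequences before their starts are shown because the pair differs so widely in level. They are the 250 bases before a RefSeq start on GRCm38.p6, chr3:138277335-138277584 for Adh1 and chr3:138442843-138443092 for the second of the 2 starts listed for Adh5, on the plus strand and with each CG dinucleotide (the letters CG, read on one strand since it is its own complement) in capitals.
Adh1: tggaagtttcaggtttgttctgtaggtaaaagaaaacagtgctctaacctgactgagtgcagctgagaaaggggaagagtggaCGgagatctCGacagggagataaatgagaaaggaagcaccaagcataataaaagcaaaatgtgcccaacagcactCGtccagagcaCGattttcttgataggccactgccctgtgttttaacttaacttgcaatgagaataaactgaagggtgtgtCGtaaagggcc
Adh5: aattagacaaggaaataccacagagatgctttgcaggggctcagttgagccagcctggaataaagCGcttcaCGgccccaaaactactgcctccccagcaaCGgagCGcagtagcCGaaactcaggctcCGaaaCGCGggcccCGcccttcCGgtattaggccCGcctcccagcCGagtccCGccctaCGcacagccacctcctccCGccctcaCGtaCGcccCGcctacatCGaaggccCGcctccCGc
The Adh1 window held 5 CG dinucleotides and this Adh5 window 21, against a median of 6 over 32851 windows of the same length, of which 44.4% held fewer than Adh1 and 83.7% fewer than Adh5. The printed Adh5 window lies inside the span of the gene given above. The other Adh5 window, directly before the start given in the count table, held 2, fewer than the Adh1 window. Among the other members with an entry, the CG count was 18 for Aldh3a2, 15 for Acss1, 13 for Acss2, 9 for Cat, 4 for Aldh1b1 and 2 for Cyp2e1, and the Aldh1a1 windows held 3 and 1 although this gene had the highest level. RefSeq windows were matched for 9 of the 10 members, all but Aldh2.

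The remaining members lie apart in the genome. Cat is at chr2:103453904-103485153, Acss1 at chr2:150618111-150668240 and Acss2 at chr2:155518043-155562743. Cyp2e1 is at chr7:140763832-140774977, Aldh2 at chr5:121567687-121593824, Aldh1a1 at chr19:20601982-20643462, Aldh1b1 at chr4:45799022-45804608 and Aldh3a2 at chr11:61244755-61267127. These spans run from the first to the last exon in the count table, and reads were counted over exons. Acss1 shares 73 exon bases with E130215H24Rik and Acss2 shares 113 with Acss2os, both on the opposite strand, and these partners had at most 13 and 1 reads in any mouse. The labels name a library kit that does not mark strand and the study's methods name a stranded one, and the use of strand in the counting is not given in the sources used here.

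None of the 10 genes passed the test in any of the 8 comparisons. Counts were tested with the quasi-likelihood method of edgeR on TMM-scaled libraries, with p-values adjusted by the Benjamini-Hochberg method over all genes tested and a threshold of 0.05. Over all genes, the percentage called was 0.457% in Water-Ethanol versus WW (70 of 15323), 0.313% in NE versus WW (48 of 15313) and 4.5% in the ethanol effect over all 16 mice (702 of 15592), and it was 0% in NW versus WW, NE versus Water-Ethanol, NE versus NW, the nicotine effect and the interaction. DESeq2 and limma also called 0 members in each comparison. At an unadjusted p under 0.05, the members counted were 0 in NW versus WW (8.44% of all genes), 0 in Water-Ethanol versus WW (19.3%), 1 in NE versus WW (17.5%), 1 in NE versus Water-Ethanol (5.8%), 1 in NE versus NW (11.9%), 1 in the ethanol effect (22.9%), 0 in the nicotine effect (10.3%) and 0 in the interaction (6.76%). These shares among 10 genes were near or under the background. Water-Ethanol versus WW and NE versus NW share no mice, and neither do NW versus WW and NE versus Water-Ethanol. All other pairs of comparisons share animals.

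Adh5 was the member with the smallest p-value in the ethanol effect over all 16 mice. Its normalized read counts, meaning counts scaled to a common library size, were 1283, 1389, 1394 and 1298 in the 4 WW mice and 1460, 1447, 1238 and 1357 in the 4 NW mice. They were 1368, 1368, 1128 and 1245 in Water-Ethanol and 1180, 1238, 1143 and 1267 in NE. All NE values lay under the lowest WW value, while the other groups overlapped with each other. Of all genes tested in NE versus WW, 5.51% were likewise lower in NE without overlap.

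The log2 fold change of Adh5 was -0.15 ± 0.049 (SE) in NE versus WW (adjusted p = 0.157, edgeR) and -0.19 ± 0.062 in NE versus NW (adjusted p = 0.279). In Water-Ethanol versus WW it was -0.067 ± 0.063 (adjusted p = 0.590). The ethanol effect over 16 mice was -0.13, with a 95% confidence interval from -0.22 to -0.035, or -8.61% (adjusted p = 0.101). An exact two-sided permutation test of the log2 counts gave p = 0.0286 for NE versus WW, the smallest that 4 against 4 mice allow. This value follows from the lack of overlap given above and adds nothing to it. The exact permutation test gave p = 0.0857 for NE versus NW and p = 0.400 for Water-Ethanol versus WW. Only Adh5, Aldh1b1 and Slc16a1, a gene described later, were tested by permutation. Without NW replicate 3, a mouse described later, the ethanol effect on Adh5 was -0.15 with an adjusted p of 0.0445. The difference between the ethanol effects with and without nicotine was -0.12 ± 0.090 (adjusted p = 0.849).

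Catalase transcripts were among the steadiest. Normalized counts of Cat ranged from 1518 to 1831 over the 16 mice, and group means (± SD, n = 4) were 1635 ± 34.2 in WW, 1642 ± 133 in NW, 1642 ± 39.3 with ethanol alone and 1591 ± 87.3 in NE. The ethanol effect was -0.020 with a 95% confidence interval from -0.097 to 0.057. Read as a percentage, the interval ran from -6.48% to 4.01%.

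Adh1 and Cyp2e1 were counted from so few reads that only large changes could have been seen. Adh1 had 9, 12, 16 and 9 raw reads in WW, 19, 15, 13 and 15 in NW, 14, 10, 18 and 7 for Water-Ethanol and 10, 14, 9 and 11 for NE. All groups overlapped, with 3 of 4 WW and 3 of 4 NE mice under the lowest NW mouse in normalized counts. The log2 fold change of Adh1 was 0.36 ± 0.25 in NW versus WW (adjusted p = 0.739) and -0.45 ± 0.26 in NE versus NW (adjusted p = 0.513).
Cyp2e1 had 15, 6, 15 and 10 raw reads in WW, 10, 10, 10 and 14 in NW, 10, 17, 12 and 10 for Water-Ethanol and 12, 4, 6 and 11 for NE. All groups overlapped, and NE replicates 2 and 3 and WW replicate 2 had the lowest values. Its log2 fold change was -0.50 in NE versus WW, with an interval from -1.35 to 0.35, and -0.59 ± 0.34 in NE versus Water-Ethanol (adjusted p = 0.834). The ethanol effects were -0.17 ± 0.20 for Adh1 and -0.14 ± 0.24 for Cyp2e1, with 95% intervals from -0.60 to 0.25 and from -0.63 to 0.36, and changes within these limits were not excluded. The classical liver gene Alb had 0 to 2 reads per mouse, and Adh4, a further alcohol dehydrogenase, had 0 reads in every library, which allows up to 3 reads in each.

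**Figure D2:**
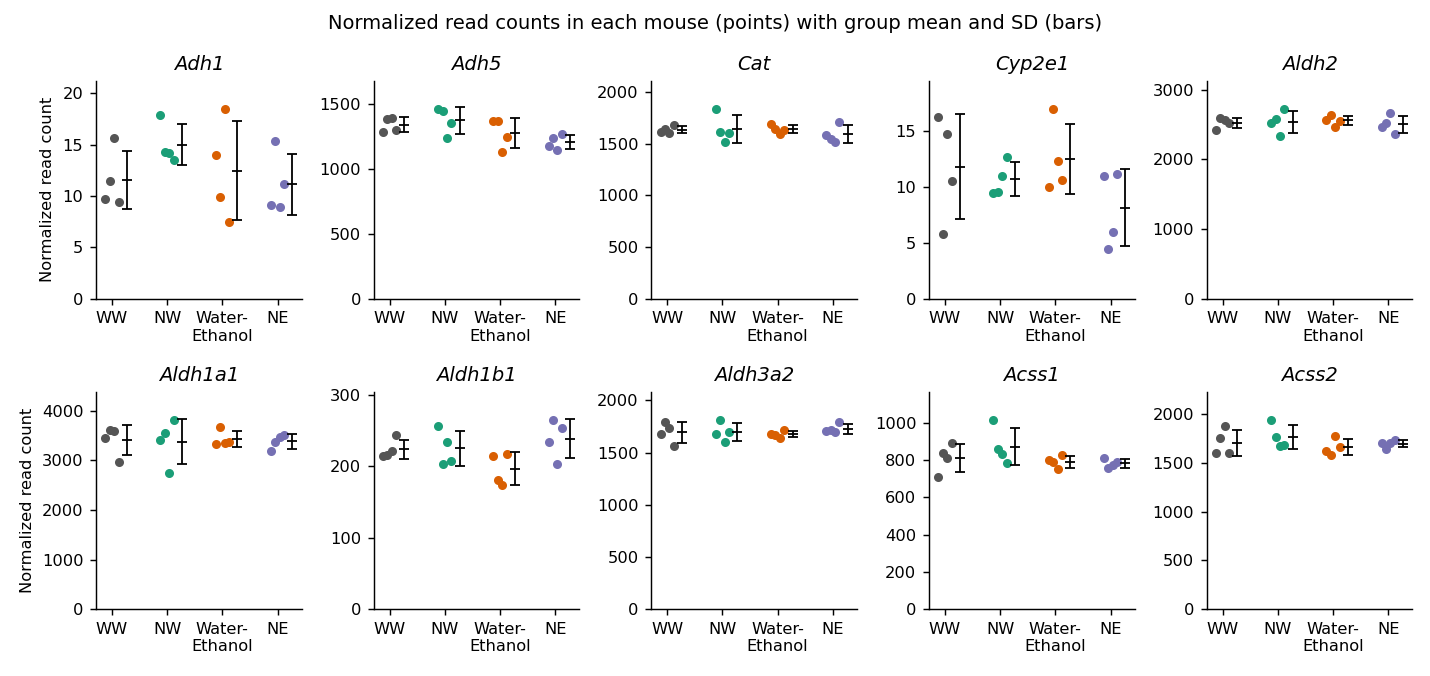
Normalized read counts of the 10 genes, one panel per gene, with 1 point per mouse and the group mean with SD beside the points. All axes start at 0. The 4 groups overlap in every panel apart from NE against WW for Adh5, where NE reaches 1267 and WW starts at 1283.

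In the acetaldehyde step, Aldh2 stayed within a narrow band. Its normalized counts ran from 2339 to 2718 over the 16 mice, with group means of 2527 ± 74.2 in WW, 2541 ± 157 in NW, 2559 ± 70.0 for Water-Ethanol and 2502 ± 124 for NE. The ethanol effect was -0.0023 on the log2 scale, with a 95% confidence interval from -0.071 to 0.066, or -4.80% to 4.70%. The nicotine effect was -0.012 ± 0.033. Aldh3a2 behaved alike, with normalized counts of 1566 to 1811 and an ethanol effect of 0.0049 (interval -0.063 to 0.073).

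Aldh1a1 had the largest spread of the well-counted dehydrogenases after Aldh1b1. Its normalized counts were 3454, 3613, 3583 and 2962 in WW, 3417, 3544, 2738 and 3811 in NW, 3324, 3676, 3359 and 3369 for Water-Ethanol and 3187, 3365, 3466 and 3518 for NE. The lowest values belonged to WW replicate 4 and NW replicate 3, and the other 14 mice lay between 3187 and 3811. The ethanol effect was 0.0068 ± 0.055 over all mice (adjusted p = 0.955). Without those 2 mice, a choice made after seeing the data, it was -0.068 (adjusted p = 0.210), so its direction turned.

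The same 2 libraries had less cerebellar RNA. The summed normalized count of 7 cerebellum markers, which include the granule cell receptor gene Gabra6, was 10161 in WW replicate 4 and 14250 in NW replicate 3 against 30885 to 36132 in the other 14 mice, and all 7 markers were lower in each of the 2 than in every other mouse. NW replicate 3 also had 3.90% of its counts on the ribosomal RNA gene Rn45s, against 0.274% to 1.37% elsewhere. The part of these in the Aldh1a1 values was not tested. In tissue mixtures such as these, fewer cells of a type and less RNA per cell cannot be told apart.

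**Figure D3:**
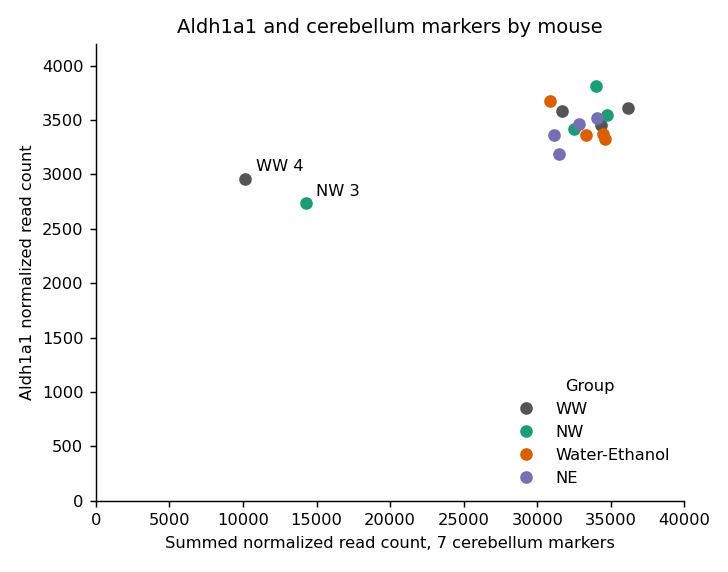
Normalized read counts of Aldh1a1 against the summed normalized counts of 7 cerebellum markers, with 1 point per mouse coloured by group. WW replicate 4 and NW replicate 3 sit at the lower left, at 2962 and 2738 Aldh1a1 counts, and the other 14 mice form 1 cloud at 3187 to 3811.

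Aldh1a1 has a close copy, Aldh1a7, 49.5 kb away on chromosome 19. The first 60 coding bases of both, from GENCODE M21 transcripts on GRCm38, are shown because reads could be split between them, with the differing bases in capitals. Aldh1a1 starts at chr19:20602012 on the plus strand and Aldh1a7 at chr19:20727512 on the minus strand.
Aldh1a1: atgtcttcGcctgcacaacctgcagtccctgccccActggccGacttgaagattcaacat
Aldh1a7: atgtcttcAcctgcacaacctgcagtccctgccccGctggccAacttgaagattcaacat
The coding sequences matched at 91.7% of aligned positions, with a longest identical run of 100 bases. None of the 2209 windows of 150 bases in the Aldh1a1 transcript, the sequenced read length, occurred in another gene's transcripts, while 151 of 2309 windows of 50 bases (6.54%) occurred in Aldh1a7. Aldh1a7 had 18 to 39 reads per mouse, and the FPKM ratio of Aldh1a1 to Aldh1a7 was 136 ± 32.9. Windows of 150 bases were also unshared for the other members except Acss2, for which 49 of 2782 (1.76%) occurred in Ggt7.

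Aldh1b1 had the largest fold change of the well-counted members in NE versus Water-Ethanol, without passing the test. Its normalized counts were 215, 216, 221 and 243 in WW, 257, 204, 234 and 208 in NW, 215, 181, 174 and 218 for Water-Ethanol and 234, 265, 203 and 253 for NE. Water-Ethanol held the lowest value and NE the highest, and both overlapped with WW and with each other. The log2 fold change was 0.28 ± 0.10 in NE versus Water-Ethanol, or 21.1% (unadjusted p = 0.0179, adjusted p = 0.834, edgeR). It was -0.18 ± 0.093 in Water-Ethanol versus WW (adjusted p = 0.306). The exact permutation tests gave p = 0.0857 and p = 0.114 for these. The nicotine effect was 0.14 ± 0.071 (adjusted p = 0.512), and the interaction 0.27 with an interval from -0.031 to 0.57 (adjusted p = 0.772).

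**Figure D4:**
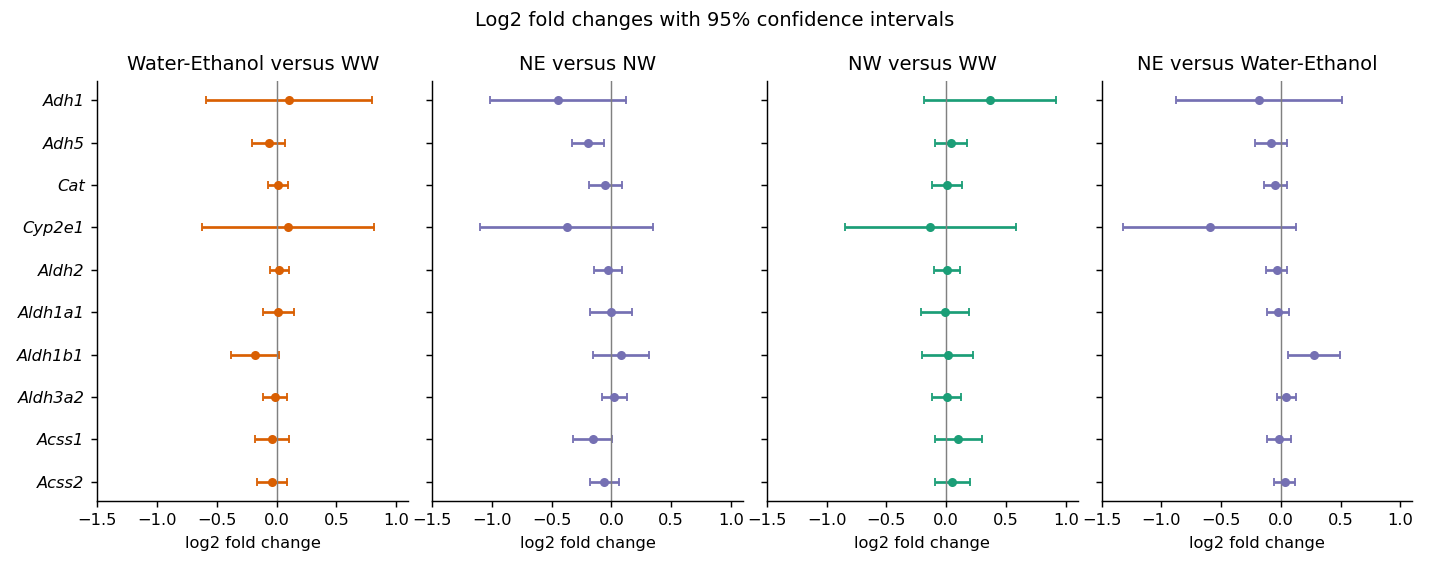
Log2 fold changes of the 10 genes in 4 comparisons, with 95% confidence intervals. The intervals of Adh1 and Cyp2e1 are the widest and include 0 in each panel. Intervals that leave out 0 are those of Adh5 in NE versus NW, at -0.19, and of Aldh1b1 in NE versus Water-Ethanol, at 0.28, and neither passed adjustment over all genes.

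For acetate activation, Acss1 was lower in NE than in NW without passing the test. Normalized counts were 711, 840, 811 and 890 in WW, 1014, 857, 831 and 782 in NW, 801, 789, 750 and 826 for Water-Ethanol and 813, 758, 772 and 789 for NE. One NW mouse stood above all others and the remaining values overlapped. The log2 fold change was -0.16 ± 0.077 in NE versus NW (adjusted p = 0.441), -0.036 ± 0.065 in Water-Ethanol versus WW (adjusted p = 0.803), and 0.10 ± 0.089 in NW versus WW (adjusted p = 0.786). The ethanol effect was -0.096 with an interval from -0.20 to 0.012, and its difference between nicotine and water mice was -0.11 ± 0.10 (adjusted p = 0.881). Acss2 had 1579 to 1934 normalized counts and an ethanol effect of -0.049 ± 0.040 (interval -0.13 to 0.036). The FPKM ratio of Acss2 to Acss1 was 2.61 ± 0.197 over the 16 mice.

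Across members, the median log2 fold change of the ethanol effect was -0.050, against 0.0021 over all 15592 genes, with 2 of 10 higher and 8 of 10 lower. Among the lower, Aldh2, Cat, Adh1, Cyp2e1 and Aldh1b1 changed by less than 1 SE, as did the higher Aldh1a1 and Aldh3a2. The share of all genes that were lower was not computed. The nicotine effect had a median of 0.0060, with 5 of 10 higher. The spread between mice of one group was 4.24% for Aldh3a2, 4.56% for Aldh2, 5.16% for Cat, 6.01% for Acss2, 7.01% for Adh5, 8.01% for Acss1, 9.49% for Aldh1a1 and 10.6% for Aldh1b1, read from the residual SD of log2 counts scaled to library size, and the median gene had 7.41%. For Adh1 and Cyp2e1 it was 25.9% and 33.4%. These genes had 7 to 19 and 4 to 17 reads per mouse, so random sampling of reads is part of their spread. The size of that part was not tested. A prior count of 2, added before the log, narrows the spread of genes with so few reads. For all members but Adh1 and Cyp2e1, the interval of the ethanol effect stayed between -0.22 and 0.12.

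The wider pathway was read from 93 other genes in 11 lists, of which 90 were in the count table and 83 were tested in the ethanol effect. Of the 83, 2 rose and 3 fell at an adjusted p under 0.05, 6.02% against the 4.5% of all genes. The median log2 fold change of the 83 was -0.023, and 28 were higher and 55 lower.

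In the list of acetate use and transport, 1 of 7 tested genes fell. This was Slc16a1, which encodes the monocarboxylate transporter MCT1 that carries lactate, ketone bodies and acetate across cell membranes. Its normalized counts were 1733, 1803, 1757 and 1641 in WW, 1682, 1628, 1409 and 1577 in NW, 1502, 1437, 1419 and 1371 for Water-Ethanol and 1462, 1508, 1464 and 1559 for NE. Every NE mouse lay under every WW mouse, as in 5.51% of all genes tested in NE versus WW. Every Water-Ethanol mouse also did so, but the share of all genes was not computed there, so how common this separation is was not measured. In Water-Ethanol versus WW, 19.3% of all genes had an unadjusted p under 0.05 by edgeR. NW overlapped with all groups. It fell by 0.17 ± 0.036 on the log2 scale in the ethanol effect (adjusted p = 0.0124, edgeR), and by 0.27 ± 0.044 in Water-Ethanol versus WW (adjusted p = 0.0357). The value was -0.21 ± 0.042 in NE versus WW (adjusted p = 0.0593, edgeR). It was -0.075 ± 0.059 in NE versus NW (adjusted p = 0.635, edgeR). In NW versus WW, with nicotine and no ethanol, it was -0.14 ± 0.058 (adjusted p = 0.559, edgeR). The interval in NW versus WW ran from -0.27 to -0.0094. The nicotine effect was -0.037 ± 0.036 (adjusted p = 0.781, edgeR). The interaction was 0.20 ± 0.072 (adjusted p = 0.678, edgeR). In the ethanol effect the call remained without each of the 16 mice in turn (adjusted p 0.0030 to 0.0363). In Water-Ethanol versus WW it was lost without 6 of the 8 mice, all but WW replicates 1 and 4, with an adjusted p up to 0.140, and in the 3 limma settings (up to 0.116). NE versus WW passed without WW replicate 4 (adjusted p = 0.0274) and with DESeq2 (0.00365). MCT1 is abundant in brain endothelium and oligodendrocytes. The 6 endothelial markers had 0 calls in the ethanol effect and summed to 7318 to 8032 normalized counts in WW, 7372 to 7886 in NW, 7215 to 7635 in Water-Ethanol and 7248 to 8163 in NE. Of the 6 oligodendrocyte markers 1 fell, and their sums were 202960 to 242114 in WW, 207129 to 237075 in NW, 187038 to 217888 in Water-Ethanol and 199586 to 228648 in NE. Their part in the Slc16a1 values was not tested.

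Among 15 other aldehyde dehydrogenases tested, 1 fell. Aldh1l1, a folate enzyme used as an astrocyte marker, had -0.19 ± 0.049 (adjusted p = 0.0385), and the call was lost without any of 11 of the 16 mice, those other than WW replicates 1 and 4, NW replicates 3 and 4 and Water-Ethanol replicate 2 (adjusted p up to 0.0903), and in the 3 limma settings (up to 0.0965). The 8 astrocyte markers listed had 0 calls in the ethanol effect, and their summed normalized counts were 189032 to 204175 in WW, 185038 to 201577 in NW, 180932 to 187733 in Water-Ethanol and 180358 to 192569 in NE. The part of cell composition in the Aldh1l1 value was not tested. Aldh1a2, a retinaldehyde dehydrogenase, had -0.21 ± 0.070 (adjusted p = 0.0917).

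In the list of peroxide handling and peroxisome genes, 1 of 13 rose, the peroxisomal import receptor gene Pex5, by 0.11 ± 0.026 (adjusted p = 0.0242). The call was lost without WW replicate 2, NW replicate 2, Water-Ethanol replicate 3 or NE replicate 3, with an adjusted p up to 0.0572. The other 12 genes of this list had fold changes under 0 in the ethanol effect, and the list's median was -0.056. Of its 13 genes, 7 had an unadjusted p under 0.05 by edgeR, against 22.9% of all genes. Of the 9 NADH shuttle genes, Slc25a12, a mitochondrial aspartate-glutamate carrier, rose by 0.092 ± 0.025 (adjusted p = 0.0434), a call lost without any of 10 mice, those other than WW replicate 1, NW replicates 1, 3 and 4 and NE replicates 1 and 4 (adjusted p up to 0.0917) and with no filter on low counts (adjusted p = 0.0713). In the shuttle list 3 genes had fold changes above 0 and 6 below. Of the 10 SREBP genes, which include targets that use acetyl-CoA for lipid synthesis, the fatty acid synthase gene Fasn fell by 0.13 ± 0.029 (adjusted p = 0.0182), and this call remained without each mouse in turn (adjusted p up to 0.0469). In the SREBP list 1 gene had a fold change above 0 and 9 below, with a median of -0.081. Of its 10 genes, 4 had an unadjusted p under 0.05 by edgeR, against 22.9% of all genes. Idi1, of sterol synthesis, fell by 0.22 ± 0.040 in Water-Ethanol versus WW (adjusted p = 0.0471), and that call remained without WW replicate 4 only, being lost without each of the other 7 mice (adjusted p up to 0.152) and in 4 of the 7 other settings, the fit of all 16 mice and the 3 limma settings (up to 0.118). Its difference was -0.30 ± 0.060 in NW versus WW (adjusted p = 0.207) and -0.25 ± 0.058 in NE versus WW (adjusted p = 0.0825, edgeR). The ethanol effect on Idi1 over all mice was -0.084 ± 0.043 (adjusted p = 0.248). The lists of other alcohol dehydrogenases with Akr1a1, microsomal cytochromes and partners, non-oxidative ethanol metabolism, NRF2, PPAR-alpha and retinoid genes had 0 calls among 1, 4, 3, 9, 5 and 7 tested genes in the ethanol effect by edgeR, where 1, 1, 0, 0, 1 and 2 had an unadjusted p under 0.05.

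**Figure D5:**
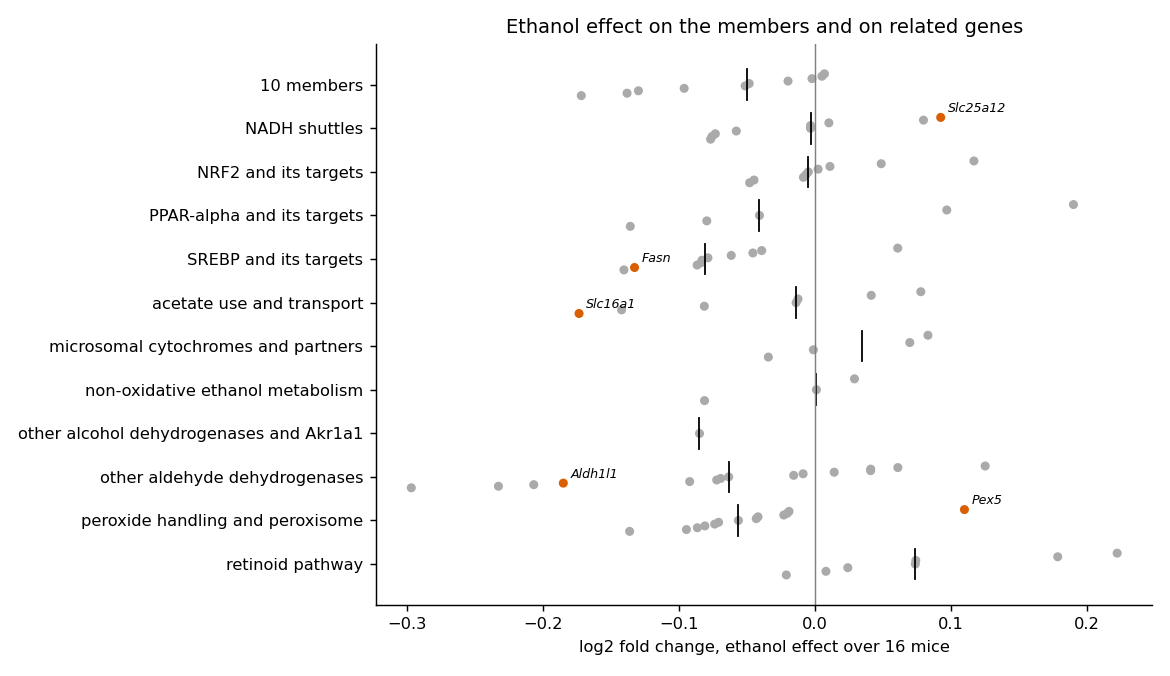
Log2 fold change of the ethanol effect over 16 mice for the 10 members and 83 related genes by list, with 1 point per gene, orange for an adjusted p under 0.05 and a black line at each list's median. No member is orange, and the 5 coloured genes are Slc16a1, Aldh1l1 and Fasn below 0 and Pex5 and Slc25a12 above 0.

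The genes whose counts varied most like each member were sought among 15591 others, from Pearson's r over 16 mice of log2 counts scaled to library size, after removal of group means. All genes of a mouse share its library and its tissue content. The highest of 15591 values of r over 16 mice can also be high between unrelated genes, so r is a description only. Adh5 was followed most closely by Atp5g2 (r = 0.93), Kcne1l (0.91) and Prdx3 (0.90), Aldh1a1 by Lrig1 (0.95), Cd83 (0.95) and 3632451O06Rik (0.94), Aldh3a2 by Ubash3b (0.92), Pappa (0.91) and Pde1c (0.91), and Aldh1b1 by Os9 (0.91), Aprt (0.86) and Il23a (0.84). For Aldh2 the nearest were Fam149a (0.88), Cry1 (0.87) and Scrt2 (0.84), for Cat 9030624J02Rik (0.87), Dus2 (0.86) and Mvd (0.84), for Acss1 Amz2 (0.86), Tlcd1 (0.83) and Gins2 (0.82), and for Acss2 Nlrx1 (0.87), Tmem62 (0.85) and 3110021N24Rik (0.85). The low counts of Adh1 were nearest to Bmp2k (0.84), Rimbp3 (0.81) and Mettl1 (0.80) and those of Cyp2e1 to E2f7 (0.83), Rxfp2 (0.82) and Tldc1 (0.80). Within the members, the highest r was 0.70 between Aldh1a1 and Aldh3a2 and the lowest was -0.40 between Aldh1a1 and Aldh1b1.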

How the data were processed

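Whole brain RNA-seq of 16 mice was analysed. Per the labels and the paper, reads were trimmed (Trimmomatic 0.32) and mapped to GRCm38 (TopHat2), and the authors deposited raw read counts per gene. The counter and its use of strand are not given in the sources used here. The authors also deposited FPKM from the Cufflinks tools, scaled for length and depth. Groups came from the labels. Mice were caged alone, and their litters are not given in the sources used here, so p-values measure the spread between these mice. Counts were fitted with edgeR 4.0.16 in R 4.3.3 (TMM, default filter on low counts, quasi-likelihood test, Benjamini-Hochberg over all genes), pairwise comparisons in the 2 groups compared and the ethanol, nicotine and interaction contrasts in all 16 mice. The SE is the absolute log2 fold change over the square root of F. Alternatives were RLE factors, DESeq2 1.42.0, no filter, fits of all mice, limma 3.58.1 on log2(FPKM + 1) or log2(FPKM + 0.1), a mean FPKM of at least 0.1, and each mouse left out. On simulated NW versus WW counts of 15257 genes, 198 of 200 genes changed by 1 log2 unit were called. Of the unchanged genes, 11 were also called. Smaller changes were not simulated, and every member's fold change was under 1 log2 unit in size. The simulation therefore does not measure the power to call changes as small as those of the members. The members and gene lists were chosen with earlier results of these data known. Named genes were the 10 members, listed genes with an adjusted p under 0.05 in any comparison, and the 3 genes most correlated with each member; Aldh1a2, Aldh1a7, Gabra6, Adh4, Alb and Rn45s were added after their values were seen. Python 3.11.15 with pandas 2.3.3 and matplotlib 3.10.9 served for other steps. Drinking data were not analysed here.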

Additional observations from a re-analysis of the deposited data

Results flagged for a closer look

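Normalized counts of Aldh1a1 in the Water-Ethanol group had 1 high mouse, replicate 2, with 3676 against 3324 to 3369 in the other 3 (ratio of gap to range 0.873, above Dixon's 95% critical value for 4 samples). Of the 40 combinations of member and group examined this was the 1 that stood out, and chance flags about 1 in 20.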

How the results depend on the processing

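The members stayed without a call in the 8 comparisons under RLE factors, DESeq2, no filter, fits of all mice and limma, and without each mouse in turn, except Adh5 in the ethanol effect, where the number of members called ranged from 0 to 1 as mice were left out (1 without NW replicate 3) and was 1 without both mice low in cerebellum markers, a setting chosen after seeing the data (log2 fold change -0.16, adjusted p = 0.0375; 0.0375 to 0.206 over all its alternatives). DESeq2 gave no adjusted p for 2 to 3 members with low counts in 6 comparisons. The count of all genes called moved far more. With DESeq2 it was 121 in NW versus WW, 605 in Water-Ethanol versus WW, 508 in NE versus WW, 2 in NE versus Water-Ethanol, 92 in NE versus NW, 1073 for ethanol, 98 for nicotine and 1 for the interaction. A fit of all mice gave 112 in NW versus WW, 28 in Water-Ethanol versus WW and 57 in NE versus NW, and no filter gave 143 in Water-Ethanol versus WW and 1 in NE versus Water-Ethanol. With limma at pseudocount 1, pseudocount 0.1 and a mean FPKM of at least 0.1, the counts were 0, 0 and 0 in Water-Ethanol versus WW, 1, 1 and 1 in NE versus WW, 1, 1 and 1 in NE versus Water-Ethanol and 1, 2 and 3 in NE versus NW, and pseudocount 0.1 gave 1 in NW versus WW. Leaving out single mice gave 0 to 797 in Water-Ethanol versus WW, 0 to 283 in NE versus WW, 0 to 1 in NE versus Water-Ethanol, 280 to 899 for ethanol and 0 to 49 for nicotine. Without both low-cerebellum mice the ethanol count was 1061. The cause of these shifts was not tested. Fold changes of members turned sign only where they were smaller than 1 SE. For the ethanol effect, Aldh2 turned to 0.0022 under each of the 3 limma settings and ranged from -0.021 to 0.014 as mice were left out, Aldh1a1 from -0.037 to 0.038, Aldh3a2 from -0.013 to 0.021 and Cat from -0.040 to 0.0091. Acss1 in Water-Ethanol versus WW ranged from -0.094 to 0.0091. Without both low-cerebellum mice Aldh1a1 was -0.068 and Aldh3a2 -0.027. The order of levels was the same by normalized counts per kb of exon. No paired analysis was possible because the labels give the groups no shared replicate numbers. With 4 mice a group, changes of Adh1 and Cyp2e1, at 4 to 19 reads, were limited by depth.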
